A study of Oryza sativa Japonica Group with 4 samples.

Results

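The regions described here are stretches of the rice genome whose CG methylation was incomplete in the DMSO control and fell only moderately after zebularine. They were chosen by their measured levels: a region had to be a CG hypo-DMR (a differentially methylated region that lost methylation), with a level under 0.8 in the control (CK) and a level after zebularine above 50% of the CK level. This rule selected 3088 of the 182125 CG hypo-DMRs, or 1.70%, out of 189883 hypo-DMRs in all contexts and 1245898 regions in both deposited lists. They are called partly methylated regions below, and they are set beside the 176744 CG hypo-DMRs with a CK level of at least 0.8, called highly methylated regions. A further 2293 CG hypo-DMRs also had a CK level under 0.8 but lost 50% or more of it.

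BS-seq reads unmethylated cytosines as T and methylated ones as C, so that a methylation level is the fraction of methylated cytosines. In the zebularine pair, 1 library came from Nipponbare seedlings that were 5 days old and then received 80 μM zebularine for 5 days, and the control library came from seedlings given only the solvent, DMSO. A further pair held genomic DNA incubated with 8 units of the GpC methyltransferase M.CviP I and 640 μM of its methyl donor SAM, and the corresponding untreated DNA, here called the CK of M.CviP I. The general growth notes give 2-week-old seedlings, and no age is given for the M.CviP I pair separately. With 1 library per condition, none of the differences has a replicate check, no test of the treatment was possible, and all comparisons below are descriptions. How many reads stand behind a level is unknown, except that the methods required at least 3 at each cytosine.

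In plants, CG methylation is copied onto the new strand after replication by the maintenance methyltransferase MET1. CHG methylation depends on chromomethylases that are guided by histone H3K9 methylation, and CHH methylation on chromomethylases and on small RNAs (H is A, C or T). Transposons usually carry methylation in all contexts, whereas the bodies of many expressed genes carry it in CG alone. Zebularine is a cytidine analogue that traps DNA methyltransferases, so that methylation can be diluted as cells divide. In DNA from whole seedlings, a level between 0 and 1 does not tell apart fewer methylated cells, fewer methylated copies and fewer methylated cytosines.

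The partly methylated regions had a median CG level of 0.738 in CK, with quartiles of 0.672 and 0.775 and a range from 0.214 to 0.7998. After zebularine the median level was 0.489, with quartiles of 0.415 and 0.551 and a range from 0.112 to 0.692. The median loss was 0.226, with quartiles of 0.191 and 0.267, which was a median of 32.6% of the CK level. In the highly methylated regions the median level was 0.952 in CK and 0.792 after zebularine, a loss of 0.157 or 16.6% of the CK level. Thus the partly methylated regions started lower in CK and had the larger median loss, both in absolute terms and relative to the start. These values chose the members, and the deposited list had been filtered at a loss of 0.1 and a p-value of 0.01, so they are given as a description only. A loss of at least 0.2 was found in 2154 of the 3088 regions, or 69.8%, against 24.8% of all CG hypo-DMRs. A p-value under 0.001 was found in 1110 regions, or 35.9%, against 78.9% of all CG hypo-DMRs. The deposited p-value compares the cytosines of a region between 2 libraries and holds no spread between replicates.

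**Figure D1:**
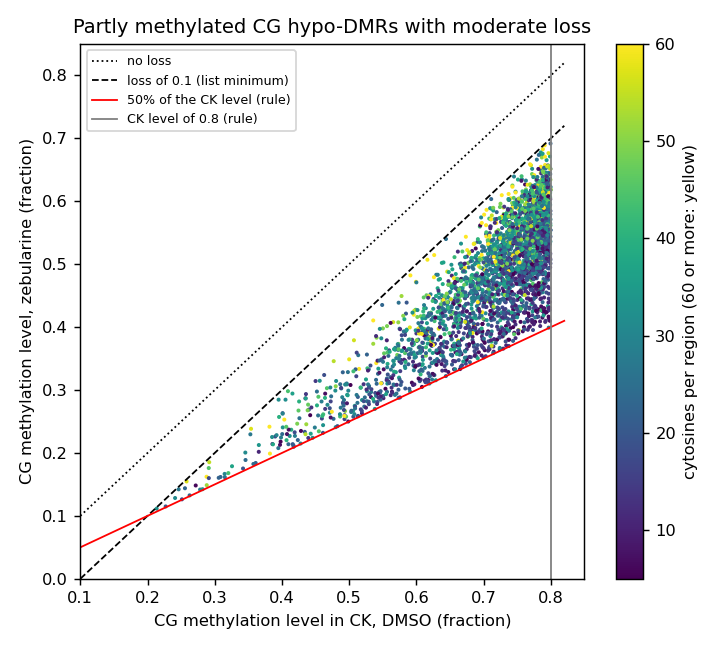
CG methylation level of each of the 3088 partly methylated regions in CK (x axis, fraction) and after zebularine (y axis, fraction), coloured by the number of cytosines. The regions fill the triangle between the smallest listed loss and the lines of the rule, and crowd toward a CK level of 0.8.

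Most members lay close to the upper limit of the rule. Of the 3088 regions, 2069, or 67.0%, had a CK level of at least 0.7, and only 147, or 4.76%, had a level under 0.5. In the regions with a CK level of 0.7 to 0.8, the median level fell from 0.764 to 0.530, a median loss of 30.3%. In the 656 regions with a CK level of 0.6 to 0.7, the median levels were 0.661 and 0.419, a loss of 35.4%. In the 216 regions with a CK level of 0.5 to 0.6, they were 0.561 and 0.335, a loss of 40.4%. In the 147 regions under 0.5, they were 0.435 and 0.253, a loss of 43.3%. The share of methylation that was lost was therefore larger from class to class as the CK level was lower, up to the limit of 50% set by the rule. Since a loss of at least 0.1 was needed for the list, a region of low CK level had to lose a larger share to be listed at all.

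Regions nearest to the limit of 0.8 were picked for that nearness. Their CK levels therefore cannot show whether the limit marks a break. The 3 regions just inside it had CK levels of 0.7998, 0.7997 and 0.7996 and losses of 0.181, 0.177 and 0.148, on chromosomes 5, 2 and 5. The 3 regions just outside it all had a CK level of 0.8, and losses of 0.324, 0.612 and 0.207. Ties in the CK level went to the smaller p-value, which favours large losses, so these losses cannot be set against those just inside. The loss of 0.612, over 5 cytosines, was 76.5% of the CK level, more than the rule allows for a member. At the limit of 50%, the 3 regions just inside lost 49.96%, 49.91% and 49.91% of the CK level, and the 3 just outside lost between exactly 50% and 50.13%. The highly methylated regions with a CK level of 0.8 to 0.85 had a median loss of 0.214 and a median loss of 25.9% of the CK level, next to 0.230 and 30.3% in the members at 0.7 to 0.8.

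The largest loss among the members was on chromosome 11 from 18001167 to 18001396 (MSU7.0), where 26 cytosines fell from 0.797 to 0.399. A region of 7 cytosines on chromosome 5, from 5086239 to 5086371, fell from 0.799 to 0.410, and a region of 21 cytosines on chromosome 3, from 23655164 to 23655378, fell from 0.798 to 0.411. These 3 regions all lie at the corner of the rule, with a CK level just under 0.8 and a loss just under 50%. None of them was overlapped by a CG or CHG hyper-DMR of the M.CviP I pair. The lowest CK level was found on chromosome 1 from 3036305 to 3036786, where 33 cytosines had a level of 0.214 in CK and 0.112 after zebularine. A CG hyper-DMR shared 244 of its 482 bp and had a CG level of 0.243 in the CK of M.CviP I, so that a low level was seen in the control libraries of both pairs. The next lowest CK levels were 0.227 over 20 cytosines and 0.241 over 31 cytosines, both on chromosome 5, with levels of 0.115 and 0.128 after zebularine.

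The partly methylated regions were somewhat shorter than the highly methylated ones but held as many cytosines. The median length was 313 bp against 371 bp, and the median number of cytosines was 25 in both. The median density was 8.58 CG cytosines per 100 bp, against 7.98 in the highly methylated regions. A length of at least 450 bp, near the largest length of 501 bp, was found in 26.5% of the partly methylated regions and 38.8% of the highly methylated ones. Together the partly methylated regions covered 0.958 Mb and held 83158 cytosines. The region with most cytosines, 110 over 501 bp, lies on chromosome 7 from 29518509 to 29519009 and fell from 0.515 to 0.334. Its overlapping CG hyper-DMR, which shared 468 bp with it, had a level of 0.361 in the CK of M.CviP I. The next largest, 97 and 95 cytosines, both lie on chromosome 5 and fell from 0.688 to 0.480 and from 0.740 to 0.587.

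An intermediate level can come from cytosines that are each partly methylated or from a mixture of fully methylated and unmethylated cytosines. The t statistic of each region gives the variance between its cytosines, which was expressed here as a share of the largest possible variance, where 0 stands for equal levels at all cytosines and 1 for all-or-none cytosines. The median share was 0.240 in the partly methylated regions, with quartiles of 0.149 and 0.332, and 0.101 in the highly methylated regions. Even levels read only 3 times per cytosine would give 0.333 on average, and 75.4% of the partly methylated regions lay under that value. Of the highly methylated regions 99.0% lay under it, and of the 2293 regions that the rule set apart for their larger loss 91.4%. The partly methylated regions thus lay under it least often. The highest variance share in the partly methylated regions was 0.585. However, the p-value cutoff of the list itself removed regions with widely spread cytosines. Given their losses and numbers of cytosines, the cutoff allowed the members a median share of at most 0.373, and in 42.4% of them it allowed less than 0.333. The share also moved with the number of cytosines, from a median of 0.0638 with 5 to 9 cytosines to 0.326 with 40 or more. In the highly methylated regions the cutoff allowed a median share of at most 0.374, close to that of the members. How far the cutoff set the variance share of the members was not tested. The variance share does not tell the 2 kinds of intermediate level apart.

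Whether the partly methylated regions carried methylation in other contexts was read from the list of gains after M.CviP I, which gives CHG and CHH levels in the other pair of libraries. This measure was not used to choose them. A region enters that list only where the enzyme raised the level by at least 0.1, so a CK level above 0.9 could not be listed. The GpC sites of each region, the target of the enzyme, were not counted, and their part in the shares was not tested. Of the partly methylated regions, 2051, or 66.4%, shared at least 1 base with a CHG hyper-DMR, with a 95% binomial interval (Clopper-Pearson) of 64.7% to 68.1%. Of the highly methylated regions, 25.7% did so. Such intervals cover counting error only and treat neighbouring regions as independent. In the overlapping CHG hyper-DMRs, the median CHG level in the CK of M.CviP I was 0.0323 for the partly methylated regions, with quartiles of 0.009 and 0.155, and 0.273 for the highly methylated regions. CHG levels under 0.05 were found in 1148 of the 2051 overlaps, or 56.0%, against 36.9% of the overlaps of the highly methylated regions. Out of all regions, overlapped or not, this was 37.2% of the partly methylated and 9.50% of the highly methylated regions. These last shares also hold the difference in overlap, since the CHG level of regions without an overlap was not read. Some of these overlaps shared only a few bases, so that the CHG level came mostly from adjoining DNA. Where the CHG hyper-DMR covered at least 50% of the region, CHG levels under 0.05 were found in 720 members, or 50.6% of such overlaps. In the highly methylated regions it was 39.2% of such overlaps. Out of all regions of each group these were 23.3% and 6.87%, and the median CHG levels were 0.0473 and 0.261.

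By CG level of the DMSO control, the overlap with CHG gains was highest at 0.5 to 0.6 and lower in each class above that. It was 68.7% under 0.5, 73.6% at 0.5 to 0.6, 68.3% at 0.6 to 0.7 and 64.9% at 0.7 to 0.8. In the highly methylated regions it was 57.3% at 0.8 to 0.85, 44.0% at 0.85 to 0.9, 26.5% at 0.9 to 0.95 and 22.1% from 0.95 on. The intervals of neighbouring member classes overlapped, but that at 0.5 to 0.6 (67.2% to 79.4%) lay above that at 0.7 to 0.8 (62.8% to 67.0%). From 0.8 on the interval of each class lay below that of the class before it. These intervals narrow with class size. The member classes held 147 to 2069 regions, and the classes from 0.8 on 3158 to 94990. The median CHG level in the overlaps was between 0.0243 and 0.0367 in the member classes, and it was 0.0543, 0.0652, 0.228 and 0.454 in the classes from 0.8 on.

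**Figure D2:**
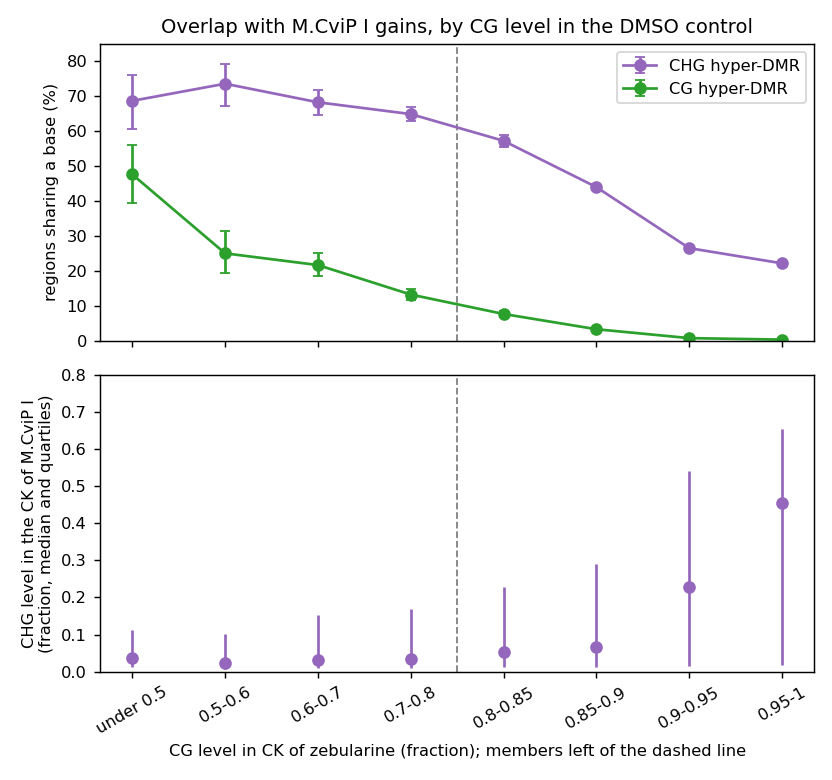
Upper panel: percent of regions sharing at least 1 base with a CHG or CG hyper-DMR (points, with 95% Clopper-Pearson intervals) by CG level in the DMSO control. Lower panel: median and quartiles of the CHG level in the CK of M.CviP I over the overlapping CHG hyper-DMRs. The CHG overlap lies between 64.9% and 73.6% in the member classes left of the dashed line and falls to 22.1% at CK levels from 0.95 on.

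The same order of the overlap shares was found among regions of equal size. With 5 to 9 cytosines, 54.9% of the 297 partly methylated regions and 32.4% of the highly methylated regions overlapped a CHG hyper-DMR. With 10 to 19 cytosines the shares were 63.4% and 27.8%, with 20 to 39 cytosines 67.1% and 22.9%, and with 40 or more cytosines the overlap was found in 414 of 552 members and in 24.5% of the highly methylated regions. It was also found among regions of equal loss: with a loss of 0.1 to 0.2 the shares were 68.3% and 22.6%, with 0.2 to 0.3 they were 66.3% and 34.9%, and with 0.3 to 0.4 they were 62.4% and 43.1%. Among the size classes the gap between the groups was narrowest with 5 to 9 cytosines, and among the loss classes it was narrowest with a loss of 0.3 to 0.4. When at least 50% of the region had to be covered, the shares were 46.1% and 17.5%. The median CHG level in the overlaps did not keep 1 order. From the fewest to the most cytosines it was 0.0172, 0.0164, 0.0411 and 0.0949 in the members. In the highly methylated regions it was 0.0138, 0.0223, 0.418 and 0.55. From the smallest to the largest loss it was 0.0373, 0.0316 and 0.0233 in the members and 0.436, 0.02465 and 0.0152 in the highly methylated regions.

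Within the members, those with and without a CHG hyper-DMR lost similar amounts of CG methylation. In the 2051 with an overlap the median level fell from 0.735 to 0.487, and in the other 1037 from 0.744 to 0.494. The median losses were 0.224 and 0.232, or 32.6% and 32.7% of the CK level. The CHH level in the CK of M.CviP I, read from overlapping CHH hyper-DMRs, was 0.016 in the members with a CHG overlap and 0.0448 in those without. Nearly all members, 3026 or 98.0%, overlapped a CHH hyper-DMR, next to 96.6% of the highly methylated regions. The median CHH level there was 0.022 for the members and 0.0485 for the highly methylated regions. CHG and CHH gains without a CG gain were found over 1645 members, or 53.3%, against 25.1% of the highly methylated regions. By contrast, a CHH gain alone was found over 27.6% of the members and 70.7% of the highly methylated regions.

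Losses in other contexts within the zebularine pair were rare. Of the 3088 members, 52, or 1.68%, shared a base with a CHG hypo-DMR, and 35, or 1.13%, with a CHH hypo-DMR, whereas 3002, or 97.2%, shared a base with neither. The highly methylated regions gave 1.93% and 0.929%, within the counting intervals of the members, which ran from 1.26% to 2.20% and from 0.791% to 1.57%. The order of the CHG shares also changed with the settings: with a p-value under 0.001 they were 2.79% and 2.22%. The overlapping CHG hypo-DMRs differed in their level. Their median CHG level in the DMSO control was 0.277 over the 52 members, with quartiles of 0.194 and 0.442, and 0.799 over the 3416 highly methylated regions, while the median CHG losses were 0.173 and 0.176. A CHG level under 0.5 was found in 44 of the 52 members and in 11.2% of the highly methylated regions. A CHG level had to be at least 0.1 to lose that much, and none of the 52 lay under it, so these few regions do not show whether CHG methylation was near 0 in the DMSO control of the other members.

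The largest CHG loss over a member was on chromosome 7 from 24802496 to 24802966. There the CG level fell from 0.796 to 0.433 over 35 cytosines, and the CHG level from 0.631 to 0.279 over 14 cytosines of the overlapping CHG hypo-DMR. In the CK of M.CviP I, the CHG hyper-DMR over this member had a CHG level of 0.293. On chromosome 1 from 18035889 to 18036185, CG fell from 0.771 to 0.411 and CHG from 0.441 to 0.140, and on chromosome 3 from 20741594 to 20742088, CG fell from 0.786 to 0.529 and CHG from 0.396 to 0.0982. The largest CHH losses over members started from low levels. They were 0.228 to 0 over 6 cytosines on chromosome 4, 0.259 to 0.0477 over 22 cytosines on chromosome 8 and 0.21 to 0 over 6 cytosines on chromosome 5.

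The CK of M.CviP I also offered a further reading of the CG level itself, in a library that the rule did not use. A CG hyper-DMR overlapped 539 members, or 17.5% (95% interval 16.1% to 18.8%), and 0.751% of the highly methylated regions. The share was 47.6% of the members with a CK level under 0.5, 54 of 216 at 0.5 to 0.6, 21.6% at 0.6 to 0.7 and 13.2% at 0.7 to 0.8. A gain in CG needs room above the control level, so the order of these shares cannot be told apart from the order of the levels. Over the 539 members, the median CG level was 0.702 in the DMSO control and 0.387 in the CK of M.CviP I, with quartiles of 0.241 and 0.539. M.CviP I raised it to a median of 0.756. The level in the CK of M.CviP I was lower than that in the DMSO control in 508 of the 539 members, or 94.2%, next to 96.0% over all CG hypo-DMRs with a CG hyper-DMR. A listed loss in one pair and a listed gain in the other favour this order.

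This difference depended on how much of the member the CG hyper-DMR covered. In 398 of the 539 members at least 50% of the region was shared. There the median levels were 0.689 in the DMSO control and 0.443 in the CK of M.CviP I, with quartiles of 0.329 and 0.575. In the other 141 members the median level in the CK of M.CviP I was only 0.181, with quartiles of 0.0313 and 0.318, next to 0.741 in the DMSO control. Of the 398 members, 365, or 91.7%, had a level between 0.2 and 0.8 in the CK of M.CviP I, and in 101, or 25.4%, the levels of the 2 controls differed by less than 0.1. Across these 398 regions the levels in the 2 controls had a Pearson correlation of 0.511 and a Spearman correlation of 0.478, given as a description, since the points come from the same 2 libraries and were filtered on a loss in one pair and a gain in the other. Across all 539 members the correlations were 0.237 and 0.205. Highly methylated regions with a CG hyper-DMR over at least 50% of their length also had intermediate levels in the CK of M.CviP I, with a median of 0.604 and quartiles of 0.445 and 0.775 over 701 regions, next to 0.8996 in the DMSO control. An intermediate level in the CK of M.CviP I therefore went with a listed gain in both groups and was not particular to the members.

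**Figure D3:**
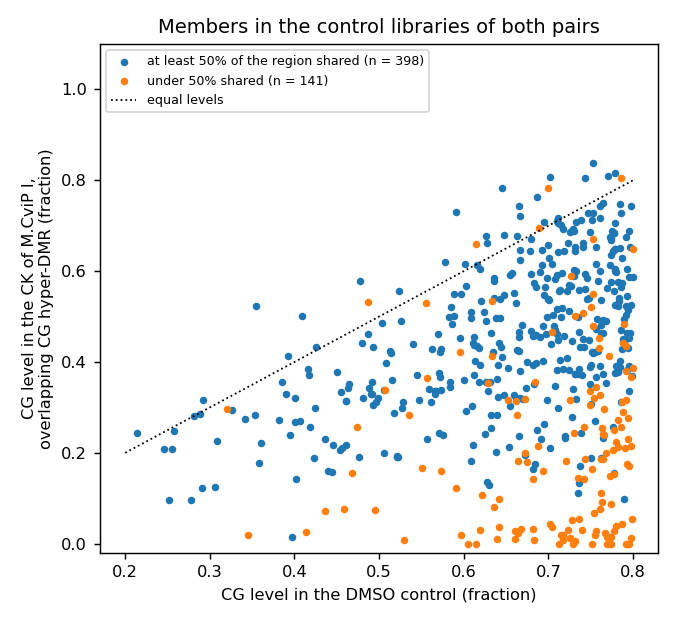
CG level of 539 members in the DMSO control (x axis, fraction) and in the CK of M.CviP I over the overlapping CG hyper-DMR (y axis, fraction). Points where at least 50% of the member is shared (n = 398) mostly lie between 0.2 and 0.8 and below the line of equal levels, and those with less sharing (n = 141) have a median of 0.181.

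A level of 0 in the CK of M.CviP I was found over 11 members, all of them with less than 50% of their length shared, from 3 to 118 bp and at most 23.8% of the member. The 3 described next are those of the tied members with the smallest p-values of the CG loss, among those with at least 10 cytosines in both regions. On chromosome 1 from 27927719 to 27928079, the member had a level of 0.729 in the DMSO control and 0.386 after zebularine, and the overlapping CG hyper-DMR a level of 0 in the CK of M.CviP I and 1 after the enzyme. On chromosome 1 from 17913901 to 17914238 and on chromosome 11 from 22738593 to 22739093, the DMSO levels were 0.774 and 0.751 and the levels in the CK of M.CviP I were also 0. These overlaps shared only 9, 5 and 12 bp, so that the levels of these members and of their CG hyper-DMRs came almost entirely from adjoining stretches of DNA.

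The partly methylated regions stood further apart from other CG losses than the highly methylated ones. The median distance from a member to the nearest CG hypo-DMR of any kind was 1013 bp, with quartiles of 249 and 2284 bp, against 164 bp for the highly methylated regions. Another CG hypo-DMR lay within 500 bp of 1061 members, or 34.4%, against 69.5% of the highly methylated regions. On both sides it did so for 3.43% of the members and 25.7% of the highly methylated regions. No listed CG region was longer than 501 bp, so a longer stretch of loss could appear only as several neighbouring regions. A neighbour less than 50 bp away was found for 7.90% of the members and 25.2% of the highly methylated regions. The part of such splitting in the distances and in the runs below was not tested. Whatever its distance, the nearest neighbour was a highly methylated region for 88.3% of the members, another member for 7.35% and a region losing 50% or more for 4.37%. Over all CG hypo-DMRs these shares were 97.7%, 1.40% and 0.917%. Among the 1061 neighbours within 500 bp the shares were 87.1%, 7.63% and 5.28%, next to 98.8%, 0.786% and 0.429% over all CG hypo-DMRs, and the median CK level of these neighbours was 0.925. The neighbour of a member was thus mostly a highly methylated region, as most CG hypo-DMRs are, but it was another region with a CK level under 0.8 more often than in the list as a whole.

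**Figure D4:**
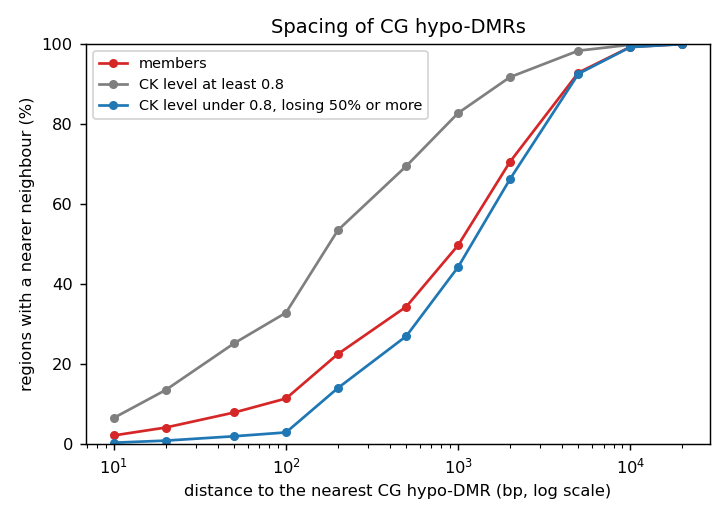
Percent of regions (y axis) whose nearest CG hypo-DMR lies closer than the distance on the x axis (bp, log scale), for members, highly methylated regions and regions with a CK level under 0.8 that lost 50% or more. At 500 bp the curves stand at 34.4%, 69.5% and 27.0%.

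When CG hypo-DMRs less than 500 bp apart were joined into runs, 65.6% of the members stood alone, against 30.5% of the highly methylated regions. Runs of 3 or more regions held 401 members, and 73.6% of these lay at an end of the run. In such runs 45.01% of the highly methylated regions did so. The share was 79.5% for regions with a CK level under 0.8 that lost 50% or more. A longer run has a smaller share of its regions at an end, and runs of equal length were not compared. Only 50 runs held 2 members, and no run held more. The first of these lies on chromosome 1, where a member from 4070013 to 4070188 fell from 0.796 to 0.527 and the next, from 4070298 to 4070770, from 0.638 to 0.431. The share with a neighbour within 500 bp was higher with more cytosines, from 25.3% of the members with 5 to 9 cytosines to 46.0% with 40 or more, and it stayed below that of the highly methylated regions, 55.7% and 79.7%, in both classes. With losses under 0.2 left out, few neighbours remained for either group, and the shares were 16.5% and 21.8%.

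Along the genome, the members were spread over all 12 chromosomes, from 192 on chromosome 9 to 309 on chromosome 1. As a share of the CG hypo-DMRs of a chromosome they ranged from 1.49% on chromosome 7 (95% interval 1.30% to 1.70%) to 2.07% on chromosome 3 (1.84% to 2.31%). The median CK level of the members lay between 0.733 and 0.743 on each chromosome, and their median loss between 0.219 and 0.235. On a finer scale they did not follow the other CG losses. In 380 windows of 1 Mb there was a median of 8 members, with a range from 0 to 24, and 5 windows held none. Windows were divided into 4 groups of equal size by their number of CG hypo-DMRs. The 95 windows with the fewest, 1 to 330 each, held 821 members, or 3.21% of their CG hypo-DMRs, and the 95 windows with the most, 625 to 1040 each, held 573 members, or 0.817%. The number of members per window was thus lower, not higher, where CG losses were densest.

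**Figure D5:**
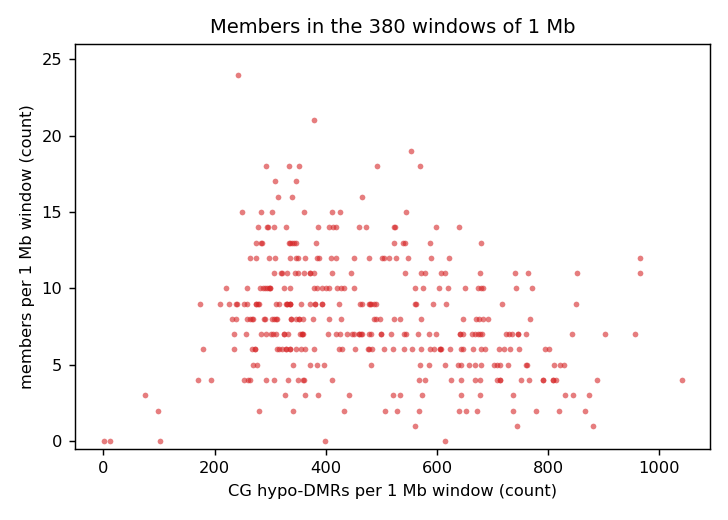
Number of members (y axis) against number of CG hypo-DMRs (x axis) in each of 380 windows of 1 Mb. The window with most members, 24, holds 242 CG hypo-DMRs, and windows with at least 625 CG hypo-DMRs hold a median of 6 members.

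The higher overlap of members with CHG gains was found in windows of each density. In the group of windows with the fewest CG hypo-DMRs, 68.3% of the members and 35.8% of the highly methylated regions overlapped a CHG hyper-DMR, and in the group with the most the shares were 59.9% and 20.9%. The median CHG level in the CK of M.CviP I was 0.0183 and 0.0185 in the windows with the fewest and 0.0948 and 0.497 in those with the most. Hence the CHG levels of the overlaps lay close together where CG losses were sparse and apart where they were dense. The spacing kept its order too, with a neighbour within 500 bp for 28.3% of the members and 55.5% of the highly methylated regions in the windows with the fewest CG hypo-DMRs and 44.9% and 77.9% in those with the most.

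The window with most members was chromosome 9 from 20 to 21 Mb, and it also had the highest share among windows with at least 100 CG hypo-DMRs. It held 24 members among 242 CG hypo-DMRs, or 9.92%, all of them between positions 20033081 and 20795710. Their CK levels ran from 0.509 over a median of 0.732 to 0.7995, and their levels after zebularine from 0.267 over a median of 0.482 to 0.626. The loss was between 0.162 and 0.365. A CHG hyper-DMR overlapped 18 of the 24, with a median CHG level of 0.011 in the CK of M.CviP I, and 85 of the 212 highly methylated regions of the window, or 40.1%, with a median of 0.0154. The next window, from 21 to 22 Mb, held 18 members among 292 CG hypo-DMRs, or 6.16%, and the one before it 8 among 289.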

How the data were processed

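The authors used Fastp for trimming and Bismark for mapping of the BS-seq reads to MSU7.0, kept cytosines with at least 3 reads and called regions with CGmapTools at a p-value under 0.01 and a difference of at least 0.1. Versions are not given in the sources used here. Each deposited level is a fraction (0 to 1), averaged over the cytosines of the region. The p-value deposited beside it is unadjusted, and the deposited t statistic, a score of the authors' region test, matched it within 1% in all 3088 members under a pooled variance. The deposited count of cytosines per region holds no reads. The lists have no header, so the treated and CK columns were told apart by the direction each list is named for. The rule was applied to the deposited levels, and the authors' differences were used to describe losses and to derive the variances between cytosines.

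Shares, medians, overlaps (at least 1 base, taking the region that shares most), distances and variances between cytosines were computed with Python 3.11.15, numpy 2.4.6, pandas 2.3.3 and scipy 1.17.1, and the functions were tested on simulated data. Members, groups and named regions (3 each by largest loss, most cytosines, lowest CK level, nearness to 0.8, CHG or CHH loss, and level in the CK of M.CviP I, and the top windows) were chosen with earlier results of these data known. The regions at the limit of 50% and the run of 2 members were named after their values were seen. Alternatives were a p-value of 0.001, a difference of 0.2, at least 10 cytosines, a CK limit of 0.7, means, a 50% overlap, distances of 200 and 1000 bp and windows of 500 kb. Gene annotation, base composition and sequences were not analysed here, since no genome of MSU7.0 was used.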

Additional observations from a re-analysis of the deposited data

How the results depend on the processing

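Alternatives were compared with 95% binomial intervals (counts with a factor of 1.5), which cover counting error only. Of 53 values under an alternative, 18 stayed within these limits and 35 moved. The order against the highly methylated regions was kept in 43 of 45 comparisons, and changed for the CHG hypo-DMR overlap with a p-value under 0.001 and with a CK limit of 0.7 (2.16% against 1.93%). The causes were not tested.

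With a p-value under 0.001 there were 1110 members, with a median loss of 0.245, 30.0 cytosines, a variance share of 0.221, a CHG hypo-DMR overlap of 2.79% and a neighbour within 500 bp for 26.9%. With a CK limit of 0.7 there were 1019 members, with a median loss of 0.221, a CHG hyper-DMR overlap of 69.5% and a neighbour for 30.3%. With at least 10 cytosines the median loss was 0.224, the cytosines 27.0, the variance share 0.257 and the neighbour share 30.1%. The mean loss was 0.231 and the mean number of cytosines 26.9. An overlap of 50% gave 1.07% for CHG hypo-DMRs and 46.1% for CHG hyper-DMRs, and, chosen after seeing the data, 23.3% in place of 37.2% for CHG levels under 0.05. A neighbour was found for 16.5% at a difference of 0.2, for 22.5% within 200 bp and for 49.7% within 1000 bp. In windows of 500 kb the highest share of members was 10.8%, next to 9.92% in windows of 1 Mb.

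No paired analysis was possible because every group holds a single library. Gene annotation and base composition were not run. The depth per cytosine is unknown, so its part in any level was not tested.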

Other observations

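The 2293 CG hypo-DMRs with a CK level under 0.8 that lost 50% or more, which the rule sets apart from the members, differed from them in size and in level. Their median length was 129 bp with 9 cytosines, and their median CG level fell from 0.355 to 0.0533. Of these regions, 7.54% overlapped a CHG hypo-DMR and 3.18% a CHH hypo-DMR, next to 1.68% and 1.13% of the members. In both sets most CHG hyper-DMR overlaps had a low CHG level in the CK of M.CviP I, with medians of 0.0165 and 0.0323. As in the members, few had another CG hypo-DMR within 500 bp, 27.0% against 34.4%.

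The 52 members that overlapped a CHG hypo-DMR were longer than the members as a whole, with a median of 441 bp and 30 cytosines. Their median CG level fell from 0.722 to 0.439, and 57.7% of them had another CG hypo-DMR within 500 bp. Longer regions have more bases to share with another region, and the 52 were not compared at equal length. The 539 members over a CG hyper-DMR had 9.38 CG cytosines per 100 bp, against 8.33 in the members without one, and a neighbour within 500 bp in 25.97% against 36.1%.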
